A study of Mus musculus with 9 samples.

Results

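The genes described here encode 9 receptors through which hormones and growth factors reach gland cells: the nuclear receptors Esr1, Pgr, Nr3c1 and Nr3c2, the cytokine-type receptors Prlr and Ghr, and the receptor tyrosine kinases Insr, Igf1r and Egfr. They were taken by name, not by their values, from a table of 54232 genes, and all 9 had enough counts to be tested. The table holds RNA of lacrimal glands, which make the watery part of tears, from female C57BL/6J mice in 9 libraries, 3 for each of the ages 2, 12 and 24 months. The mice had food without limit and 12 h of light a day, the labels name no engineered allele and no agent for any group, and the titles of the youngest group give 8 weeks. Nothing in the labels tells whether a library is 1 mouse or a pool, so a p-value here measures the spread between libraries and nothing wider, and that spread may be technical. The design compares ages, and the question for these genes is whether the transcript of a receptor differs between glands of different age.

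Steroid hormones cross the cell membrane and bind nuclear receptors, which then act as transcription factors. Esr1 binds oestrogen, Pgr progesterone, Nr3c1 glucocorticoids and Nr3c2 aldosterone and glucocorticoids. Prolactin and growth hormone bind Prlr and Ghr at the cell surface, where the kinase JAK2 phosphorylates STAT5, and STAT5 switches on its own inhibitors of the SOCS family. Insulin, IGF1 and EGF bind receptors that are kinases themselves. The lacrimal gland is a known target of sex steroids and prolactin, and EGF is a component of tears.

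Levels are in CPM, counts scaled by TMM to a common library size, and a gene is said to have risen, fallen or been called when its adjusted p in the edgeR quasi-likelihood test was under 0.05 over 14944 tested genes. Libraries held 40516863 to 42573877 counts, and the 7 markers of lacrimal acinar cells, such as Obp1a and Ltf, were detected at every age and summed to 150000 to 235000 CPM. The 5 salivary gland markers were highest in 3 libraries, called the salivary libraries below. Their sum was 845 CPM for 2-month replicate 3, while 12-month replicate 2 had 379 and 24-month replicate 2 had 252. It was 71 in 2-month replicate 2 and 0.573 to 7.2 elsewhere. Fits without the 3 salivary libraries keep 2-month replicate 2, so they still hold some salivary signal at 2 months. In 12-month replicates 1 and 3 the 5 skeletal muscle markers summed to 26.2 and 50.1 CPM, against at most 1.1 elsewhere. Calls that depend on the salivary or muscle libraries are given with and without them. With library totals in place of TMM, the log2 fold changes of all genes had a median of 0.31 at 12 against 2 months and of 0.31 at 24 against 2 months. It changed the called genes at 12 against 2 months to 1614 higher and 80 lower, against 808 and 377 with TMM, and at 24 against 2 months to 2626 higher and 191 lower, against 1467 and 1130.

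At most 2 of the 9 receptors passed in each edgeR test of the ages, and each count is set beside the share of all tested genes. Igf1r fell and Esr1 rose at 24 against 2 months, and the 7 others did not pass the test, so that 2 of 9 were called where 17.4% of all tested genes were. For 24 against 12 months 1 of 9, Igf1r, was called, with 4.39% of all genes. At 12 against 2 months 0 of 9 were called by edgeR, with 7.93% of all genes called. There 3 of 9 (Esr1, Pgr and Prlr) had an unadjusted p under 0.05, as had 23.2% of all genes, while DESeq2 called 2 (Prlr and Pgr) and limma voom 0. The same unadjusted threshold was passed by 4 of 9 at 24 against 2 months (31.7% of all genes), 3 at 24 against 12 (18.9%) and 5 for the 3 ages (32.7%). With the 3 ages tested together, Igf1r and Prlr were called, 2 of 9 beside 17% of all genes. The median log2 fold change of the 9 was 0.0017 at 12 against 2 months, 0.06 at 24 against 2 and 0.21 at 24 against 12, beside medians of 0.0067, 0.0088 and -0.02 over all tested genes.

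**Figure D1:**
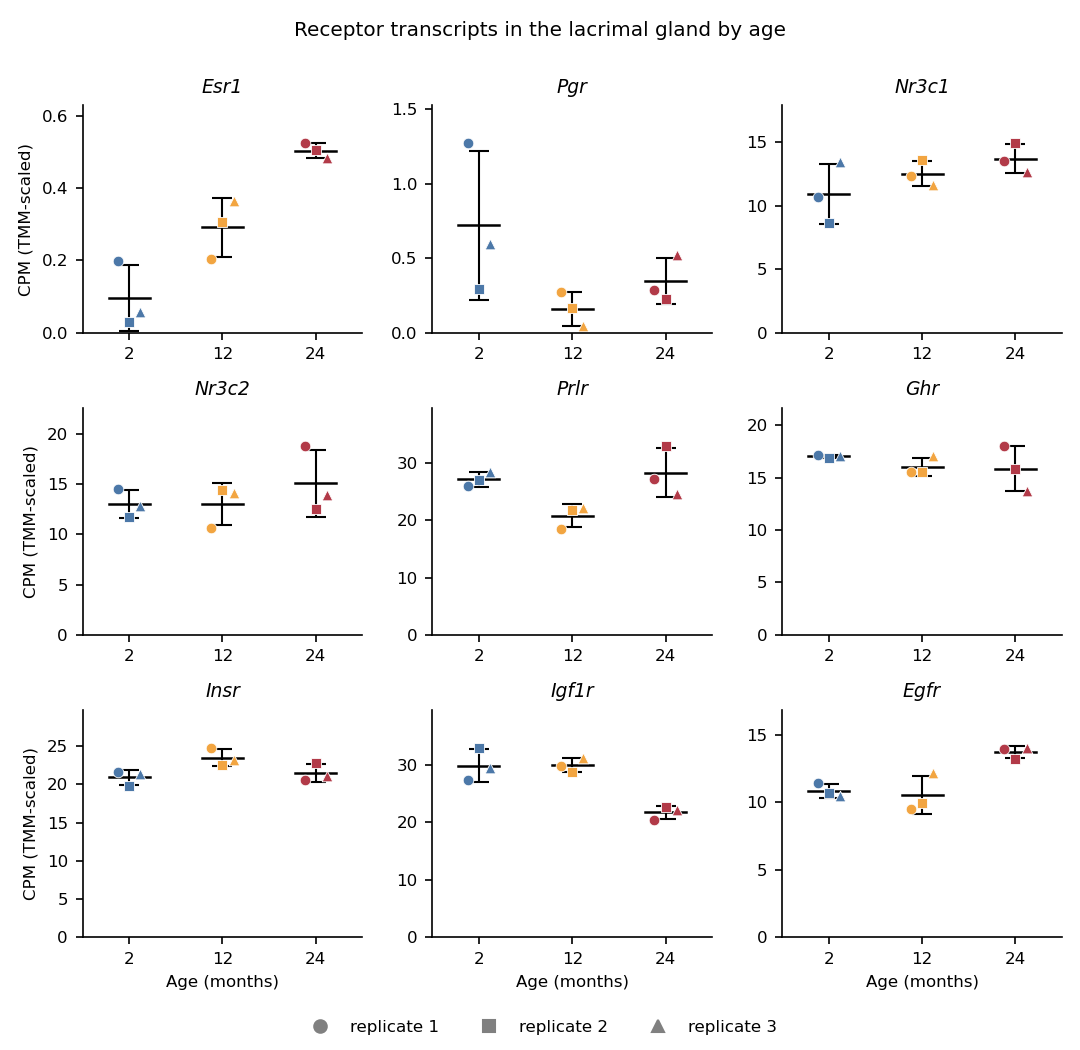
CPM of each receptor transcript (y axis, TMM-scaled, starting at 0 and scaled to each gene) in every library at 2, 12 and 24 months (x axis). Points are libraries, with a marker shape for each replicate number, and bars are the mean ± SD of 3. The 24-month libraries of Igf1r lie at 20.4 to 22.6 CPM, under all 6 younger ones, those of Esr1 and Egfr lie above all younger ones, and Prlr is lowest at 12 months.

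Counted per length of exon, 7 of the 9 receptors had mean levels of 1.04 to 2.12 CPM per kb, and the sex steroid receptors were far below them. Mean levels per kb of exon, over the 9 libraries, were 2.12 CPM for Nr3c2, 1.8 for Ghr, 1.66 for Prlr, 1.62 for Igf1r, 1.61 for Nr3c1 and 1.6 for Insr. Egfr followed with a level of 1.04 CPM per kb, Pgr with 0.0478 and Esr1 with 0.0217. Of the 8 neighbouring pairs in this order, the libraries of 2 did not overlap: Insr lay above Egfr, and Egfr above Pgr. The order among the 6 highest is therefore not resolved, and with the longest transcript in place of all exons it began with Ghr, Prlr and Igf1r.

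**Figure D2:**
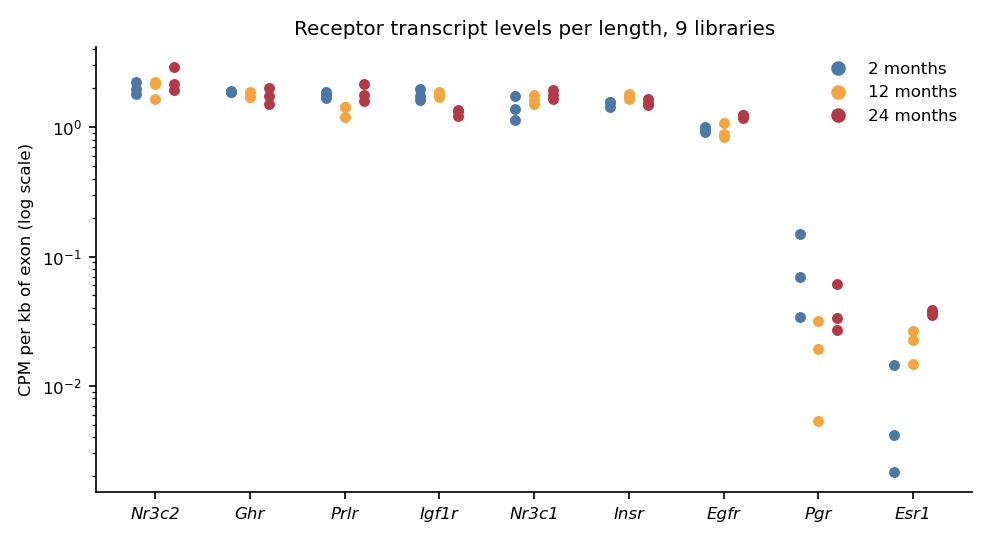
Level of each receptor transcript in CPM per kb of exon (y axis, log scale) in the 9 libraries, ordered by mean level along the x axis and coloured by age. From Nr3c2 at 2.12 to Insr at 1.6 the genes overlap, while Pgr at 0.0478 and Esr1 at 0.0217 lie apart at the low end.

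Esr1 (ENSMUSG00000019768, GRCm38 chromosome 10, 4611593 to 5005614, plus strand) encodes oestrogen receptor alpha. It had 8, 1 and 2 counts in 2-month replicates 1, 2 and 3, with 9, 15 and 16 in those of 12 months and 20, 22 and 24 in those of 24 months. No library of an older age was at or below one of a younger age, in counts or in CPM, although 12-month replicate 1 stood only just above 2-month replicate 1, at 0.203 against 0.199 CPM. In CPM the means were 0.0951 ± 0.0913 at 2 months, 0.291 ± 0.0813 at 12 months and 0.504 ± 0.0203 at 24 months (SD, n = 3 each). The gene rose 5.01-fold at 24 against 2 months (95% interval 1.7 to 14.8; log2 fold change 2.33, SE 0.64; edgeR quasi-likelihood adjusted p = 0.0272). Its log2 fold change was 1.54 at 12 against 2 months (edgeR adjusted p = 0.176) and 0.78 at 24 against 12 months (edgeR adjusted p = 0.499). Its first annotated promoter is shown because Esr1 is the only receptor of the 9 called higher, and it can be set beside that of Igf1r, the only one called lower in a comparison of 2 ages. The letters are the RefSeq sequence of GRCm38.p6, chr10:4611739-4612018, plus strand, from 250 bases before the start to 30 bases from it, with none of the searched motifs and so no capitals.
Esr1: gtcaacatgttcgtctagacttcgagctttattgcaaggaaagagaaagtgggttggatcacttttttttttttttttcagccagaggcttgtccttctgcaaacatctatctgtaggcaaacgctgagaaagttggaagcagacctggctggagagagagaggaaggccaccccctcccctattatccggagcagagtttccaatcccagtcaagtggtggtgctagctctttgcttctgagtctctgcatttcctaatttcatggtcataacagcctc

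The call of Esr1 rests on few counts. Without 1 library it was lost in 5 cases, with edgeR adjusted p = 0.0992 without 2-month replicate 2, 0.0995 without 2-month replicate 3, and 0.0568, 0.0663 and 0.0701 without 24-month replicates 1, 2 and 3, at log2 fold changes of 1.93 to 2.36. It was lost too without the 3 salivary libraries (log2 fold change 2.08, edgeR adjusted p = 0.223) and without the 2 muscle libraries (2.33, edgeR adjusted p = 0.0535). Without the muscle libraries 12 months has 1 library, here and below, which is assumed to vary like those of the other ages. The filter on counts was passed through the older libraries, where Esr1 is higher, since no 2-month library reached 10 counts. Its call therefore adds no support to the counts given above. Markers of other cells also differed between ages. The 5 macrophage markers summed to 38.6 to 66.1 CPM at 2 months, 144 to 194 at 12 months and 183 to 263 at 24 months. The 8 adipocyte markers summed to 1.5 to 2.09 CPM at 2 months, 10.9 to 37.9 at 12 and 10.8 to 31.4 at 24. For the 6 fibroblast markers the sums were 78.9 to 141, 87.5 to 102 and 133 to 212 CPM. The adipocyte sums thus overlapped between 12 and 24 months, and the fibroblast sums between 2 and 12 and between 2 and 24 months. The part of these cells in the change of Esr1 was not tested. In whole glands fewer cells of a type and less RNA per cell cannot be told apart.

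Pgr (ENSMUSG00000031870, chromosome 9, 8899833 to 8968611, plus strand), the progesterone receptor and in many tissues a target of oestrogen receptor alpha, had 51, 10 and 21 counts in the 2-month libraries, 12, 8 and 2 in the 12-month and 11, 10 and 26 in the 24-month libraries. The highest value was in 2-month replicate 1, at 1.27 CPM, and all 3 libraries at 2 months lay above all 3 at 12 months. The 24-month libraries overlapped both. The log2 fold change was -2.16 (SE 0.69) at 12 against 2 months, which did not pass (edgeR adjusted p = 0.0796), though DESeq2 called it (adjusted p = 0.0303) and so did edgeR with no count filter (adjusted p = 0.0151). The change at 24 against 2 months was -1.04 (95% interval of the fold 0.161 to 1.46; edgeR adjusted p = 0.302) and at 24 against 12 months 1.11 (edgeR adjusted p = 0.437). Within each library, where scaling cancels, the counts of Pgr were 6.38, 10 and 10.5 times those of Esr1 in the 2-month libraries, 1.33, 0.533 and 0.125 times in the 12-month and 0.55, 0.455 and 1.08 times in the 24-month libraries. All 3 ratios at 2 months thus lay above all 6 later ones. They divide by only 8, 1 and 2 counts of Esr1, so their size is uncertain, and the ratio was not tested.

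The receptors for adrenal steroids were not resolved between ages. Nr3c1 (ENSMUSG00000024431, chromosome 18, 39410545 to 39519421, minus strand), the glucocorticoid receptor, had 10.7, 8.66 and 13.4 CPM in the 2-month libraries, 12.4, 13.6 and 11.6 in the 12-month and 13.6, 14.9 and 12.7 in the 24-month libraries. The ages overlapped in all 3 comparisons, and 2-month replicate 3 stood within the range of the older libraries. The fold at 24 against 2 months was 1.26 (95% interval 0.977 to 1.61; edgeR adjusted p = 0.15). Without 2-month replicate 3 the log2 fold change was 0.5 in place of 0.33 and passed (edgeR adjusted p = 0.0484), and it passed as well with library totals alone (0.62, edgeR adjusted p = 0.0387).

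Nr3c2 (ENSMUSG00000031618, chromosome 8, 76899442 to 77245012, plus strand), the mineralocorticoid receptor, had 14.5, 11.7 and 12.8 CPM in the 2-month libraries, 10.7, 14.4 and 14.1 in the 12-month and 18.8, 12.5 and 13.9 in the 24-month libraries. The ages overlapped, with 24-month replicate 1 the highest library. Folds were 1 at 12 against 2 months (95% interval 0.759 to 1.32) and 1.16 at 24 against 2 months (0.877 to 1.53), with edgeR adjusted p = 0.995 and 0.419. The exons of Nr3c2 share 247 bases with Gm10649 on the other strand, which had at most 13 counts in a library, and the strand setting of the counting is not given in the sources used here. Counts of Nr3c1 were 0.737, 0.738 and 1.05 times those of Nr3c2 in the 2-month libraries, 1.16, 0.949 and 0.824 times in the 12-month and 0.72, 1.19 and 0.912 times in the 24-month libraries, with no separation of the ages.

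Around the steroid receptors, transcripts of some enzymes and helper proteins were called at 24 against 2 months, though none of them in every alternative fit. Of 22 genes in a list of other steroid receptors, chaperones, coregulators and steroid enzymes, 18 were tested, and at 24 against 2 months 2 rose and 5 fell, beside 9.82% of all genes higher and 7.56% lower. Hsd11b1, the enzyme that regenerates active glucocorticoid inside cells, averaged 1.88 ± 0.459 CPM at 24 months and 0.435 ± 0.194 at 2 months (SD, n = 3 each; log2 fold change 2.09, edgeR adjusted p = 0.0212). The adipocyte, macrophage and fibroblast markers given beside Esr1 moved the same way in this comparison, the fibroblast sums with overlap between the ages, and their part in Hsd11b1 was not tested. Ptges3, the p23 co-chaperone of steroid receptors, had 36.3, 37.9 and 36.7 CPM at 24 months against 45.4, 51.7 and 50 at 2 months, all lower (log2 fold change -0.41, edgeR adjusted p = 0.00831). Hsd17b10, a mitochondrial dehydrogenase that also acts on steroids, averaged 36.1 ± 4.78 CPM at 24 months and 58 ± 9.09 at 2 months (log2 fold change -0.68, edgeR adjusted p = 0.00792). Ncoa3, a coactivator of nuclear receptors, averaged 16.6 ± 0.357 CPM at 24 months and 22.4 ± 3.27 at 2 months (log2 fold change -0.43, edgeR adjusted p = 0.0177).

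At 12 against 2 months only the corepressor gene Ncor1 was called in this list, lower by 0.51 on the log2 scale, and at 24 against 12 months edgeR called 0 of the 18. The call of Hsd11b1 was lost without 2-month replicate 1 or 2 (edgeR adjusted p = 0.0525 and 0.0904) or 24-month replicate 1 (0.0536), and that of Ncoa3 without 2-month replicate 2 (0.0738) or 24-month replicate 2 (0.0534). Ncor1 was no longer called without any 1 of 2-month replicates 2 and 3, 12-month replicates 1, 2 and 3, and 24-month replicate 2 (edgeR adjusted p = 0.15, 0.0906, 0.0599, 0.161, 0.0908 and 0.0534), nor without the salivary (0.345, log2 fold change -0.50) or muscle libraries (0.166, -0.59). With library totals the log2 fold changes were -0.10 for Ptges3 and -0.12 for Ncoa3 at 24 against 2 months and -0.19 for Ncor1 at 12 against 2, none called (edgeR adjusted p = 0.547, 0.565 and 0.287). Without the salivary libraries the log2 fold changes of Ptges3, Ncoa3 and Hsd17b10 at 24 against 2 months were -0.41, -0.51 and -0.70, and none was called (edgeR adjusted p = 0.12, 0.072 and 0.0705). Esr2, the second oestrogen receptor, had 2 to 10 counts a library and was not tested, nor was the membrane oestrogen receptor Gper1 with 0 to 7. Hsd11b2, which shields the mineralocorticoid receptor from glucocorticoid in kidney, had 0 to 2 counts.

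Genes known to respond to glucocorticoid or aldosterone were mostly not called. Of 18 in that list 16 were tested, and edgeR called 1 at 12 against 2 months (Mt2, metallothionein 2, higher), 0 at 24 against 2 and 0 at 24 against 12, beside 7.93, 17.4 and 4.39% of all genes. The medians of their log2 fold changes were 0.1, 0.15 and 0.07, beside 0.0067, 0.0088 and -0.02 over all genes. Mt2 was low, at 0.117 to 0.425 CPM at 2 months, 0.768 to 3.29 at 12 months and 0.503 to 1.34 at 24 months (log2 fold change 2.72 at 12 against 2 months, edgeR adjusted p = 0.0211). Its call was lost without any 1 of the 2-month replicates 1, 2 and 3 (edgeR adjusted p = 0.0501, 0.0937 and 0.0561) or 12-month replicates 2 and 3 (0.0681 and 0.0572), and without the salivary (0.17) or muscle libraries (0.0531), where the log2 fold changes were 3.0 and 2.73.

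Prlr (ENSMUSG00000005268, chromosome 15, 10177238 to 10349180, plus strand), the prolactin receptor, was lowest in middle age. It had 26, 27.1 and 28.5 CPM in the 2-month libraries, 18.5, 21.8 and 22.1 in the 12-month and 27.3, 33.1 and 24.7 in the 24-month libraries. Every 12-month library lay under every library of the other ages, and the 2-month and 24-month libraries overlapped. The 3 ages differed (edgeR quasi-likelihood adjusted p = 0.0355 for the 3 ages together), while the single steps fell just short. The log2 fold change was -0.39 (SE 0.12; edgeR adjusted p = 0.0628) at 12 against 2 months and 0.44 (SE 0.12; edgeR adjusted p = 0.051) at 24 against 12 months, and the fold at 24 against 2 months was 1.04 (95% interval 0.856 to 1.27). DESeq2 called both steps (adjusted p = 0.0297 and 0.0121), as did edgeR with no count filter (0.0289 and 0.00584), and limma voom called the second (0.0326). Its exons share 203 bases with Gm21973, which had 0 counts in every library.

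The call of Prlr across the 3 ages was lost without 2-month replicate 2 (edgeR adjusted p = 0.0701) or 3 (0.0752), 12-month replicate 1 (0.135) or 2 (0.0687), and 24-month replicate 2 (0.0506). It was lost too without the 3 salivary libraries (edgeR adjusted p = 0.236), without the 2 muscle libraries (0.308), and with library totals alone (0.0821). Among single steps, edgeR called 12 against 2 months without 24-month replicate 2 or 3 (adjusted p = 0.0413 and 0.0427) and 24 against 12 months without 24-month replicate 3 (0.031). The 5 markers of myoepithelial cells and smooth muscle had the same dip, with summed levels of 151 to 189 CPM at 2 months, 103 to 115 at 12 months and 160 to 167 at 24 months, and 3 of the 5 (Acta2, Cnn1 and Myh11) were called in both steps. Their part in the result was not tested. Among the protein-coding genes whose log2 CPM tracked Prlr most closely over the 9 libraries, of 7362 compared, were Agpat2 (Pearson r = 0.913) and Mpped2 (0.908). Agpat2 makes phosphatidic acid for lipid synthesis. The 9 libraries share the 3 ages, so these correlations describe the likeness of profiles only.

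Ghr (ENSMUSG00000055737, chromosome 15, 3317760 to 3583492, minus strand), the growth hormone receptor, gave 17.2, 16.9 and 17 CPM in the 2-month libraries, 15.5, 15.6 and 17.1 in the 12-month and 18.1, 15.8 and 13.8 in the 24-month libraries. The ages overlapped in every comparison. Folds were 0.941 at 12 against 2 months (95% interval 0.784 to 1.13), 0.931 at 24 against 2 (0.775 to 1.12) and 0.988 at 24 against 12 (0.824 to 1.19), with edgeR adjusted p = 0.691, 0.556 and 0.954. Counts of Ghr were 0.662, 0.623 and 0.597 times those of Prlr in the 2-month libraries, 0.839, 0.713 and 0.77 times in the 12-month and 0.663, 0.477 and 0.558 times in the 24-month libraries. The 3 ratios at 12 months were therefore above the other 6.

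Several genes of the JAK2 and STAT5 route below Prlr and Ghr were higher at 24 months. Of 17 genes in the list 14 were tested, and at 24 against 2 months 4 rose (Socs2, Cish, Igf1 and Jak2) and 1 fell (Socs7), beside 9.82% of all genes higher and 7.56% lower. At 24 against 12 months 4 rose (Socs2, Cish, Jak2 and Stat5b) and 0 fell, beside 2.79 and 1.6% of all genes. In the step to 12 months 2 rose (Igf1 and Bcl6), beside 5.41% of all genes. The medians of the list were 0.33, 0.11 and 0.06 in these comparisons, beside 0.0088, -0.02 and 0.0067 over all genes.

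Socs2, a feedback inhibitor of growth hormone signalling, had 4.76, 7.61 and 7.39 CPM in the 2-month libraries, 6.28, 5.99 and 6.43 in the 12-month and 23.1, 35.7 and 27.8 in the 24-month libraries. All 3 old libraries stood above all 6 younger ones. The log2 fold change was 2.13 (SE 0.19; edgeR adjusted p = 7.49e-05) at 24 against 2 months and 2.21 (SE 0.19; edgeR adjusted p = 8.17e-05) at 24 against 12 months. Cish, another STAT5-induced inhibitor, gave 6.08, 8.34 and 7.56 CPM in the 2-month libraries, 6.14, 5.64 and 4.2 in the 12-month and 17.6, 16.3 and 17 in the 24-month libraries. Its old libraries were also apart from the rest, at log2 fold changes of 1.21 (SE 0.16; edgeR adjusted p = 0.000625) at 24 against 2 months and 1.67 (SE 0.16; edgeR adjusted p = 0.000146) at 24 against 12 months. Both genes were called in both comparisons under all 19 alternatives run.

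The RefSeq promoter of Cish, which was called as stated, is shown because its window holds the STAT motif TTCNNNGAA at 2 places. The motif reads the same on both strands, and 8.3% of 32851 mouse promoter windows of 300 bases hold it at least once and 0.457% at least 2 times. The letters are GRCm38.p6, chr9:107296409-107296688, plus strand, from 250 bases before the start to 30 bases from it. Capitals mark TTCCTGGAA, which begins at base 251, and TTCTTGGAA, which begins at base 262, counted from 1 at the first base printed. A match of letters is a description and not a binding site. The motif was not in the windows of Igf1 and Jak2 or the pair of windows of Stat5b, and it was in 1 of the 3 windows of Prlr and in the second of the windows of Esr1. No RefSeq window was found for Socs2, so its promoter was not searched.
Cish: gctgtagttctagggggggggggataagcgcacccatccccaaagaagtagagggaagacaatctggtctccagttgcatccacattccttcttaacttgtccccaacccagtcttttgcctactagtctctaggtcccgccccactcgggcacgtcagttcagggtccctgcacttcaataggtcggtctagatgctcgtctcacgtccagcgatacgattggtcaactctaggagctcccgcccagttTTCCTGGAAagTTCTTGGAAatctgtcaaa

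Jak2, the kinase bound to both receptors, had 5.93, 3.61 and 4.98 CPM in the 2-month libraries, 4.77, 5.11 and 4.23 in the 12-month and 11.3, 11.3 and 17.9 in the 24-month libraries, again with no overlap between the old libraries and the rest. Its log2 fold change was 1.48 (SE 0.21; edgeR adjusted p = 0.00131) at 24 against 2 months, called in all 19 alternatives, and 1.52 (SE 0.21; edgeR adjusted p = 0.00193) at 24 against 12 months, lost without the muscle libraries (1.42, adjusted p = 0.105). Stat5b averaged 26.7 ± 2.1 CPM at 24 months and 18.5 ± 2.16 at 12 months (SD, n = 3 each; log2 fold change 0.53, edgeR adjusted p = 0.0323). That call was lost without 2-month replicate 3 (edgeR adjusted p = 0.0542), 12-month replicate 1 (0.122) or 3 (0.0608), and 24-month replicate 2 (0.0811) or 3 (0.0967), and without the salivary (0.157, log2 fold change 0.63) or muscle libraries (0.468, 0.39), and with library totals (0.212, 0.53). Stat5a, its close relative, was not called, at a log2 fold change of 0.32 at 24 against 2 months (edgeR adjusted p = 0.204). Stat5a and Stat5b are similar in sequence, and how the counting treated reads that match both is not given.

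Socs7 fell at 24 against 2 months by 0.34 on the log2 scale (edgeR adjusted p = 0.0335), a call lost without 2-month replicate 2 (0.123) or 3 (0.0687) or 24-month replicate 2 (0.118) or 3 (0.0877), and without the salivary (0.238) or muscle libraries (0.0567), at log2 fold changes of -0.32 and -0.33. With library totals alone it was -0.04 (edgeR adjusted p = 0.858), and with no count filter the adjusted p was 0.0853. It was named after its value was seen. Bcl6, a repressor that also marks germinal centre B cells, rose at 12 against 2 months by 0.95 on the log2 scale (edgeR adjusted p = 0.0354), a call lost without 2-month replicate 2 (0.157) or 3 (0.116) or 12-month replicate 1 (0.103) or 3 (0.102), and without the salivary libraries (0.077, log2 fold change 1.16) or the muscle libraries (0.662), where the log2 fold change was 0.27. The 5 B cell markers summed to 13.9 to 128 CPM at 12 months and 0.235 to 0.324 at 2 months, and their part in Bcl6 was not tested. As for the hormones, Gh had 0 counts in all 9 libraries and Prl 0 or 1, so that neither was measurable in gland RNA at this depth. JAK2, SOCS2 and CISH also serve other cytokine receptors, and immune markers differed between ages. The 5 B cell markers summed to 11.6 to 20.4 CPM at 24 months, and 4 of them were called lower at 24 against 12 months. The 5 T cell markers summed to 6.15 to 12.3 CPM at 24 months against 0.411 to 0.847 at 2 months. At 12 months the T cell sum was 4.89 to 17.5 CPM, and Socs2, Cish and Jak2 were not called there against 2 months (log2 fold changes -0.08, -0.46 and -0.04). The part of these cells in the 24-month levels was not tested.

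**Figure D3:**
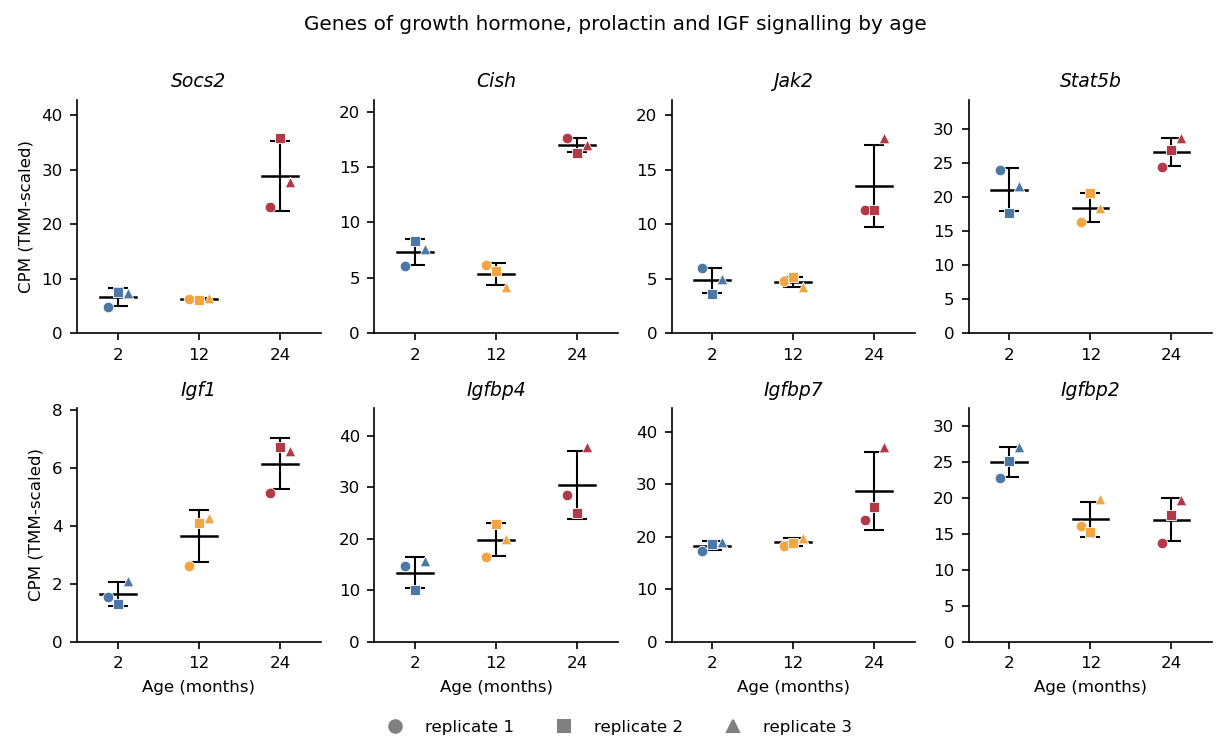
CPM (y axis, TMM-scaled, starting at 0) of 8 genes of growth hormone, prolactin and IGF signalling in every library at 2, 12 and 24 months (x axis), with the mean ± SD of 3 as bars and a marker shape for each replicate number. Socs2, Cish and Jak2 are apart at 24 months, Igf1 and Igfbp4 have their highest means there, and Igfbp2 is highest at 2 months.

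Igf1r (ENSMUSG00000005533, chromosome 7, 67952827 to 68233668, plus strand), the receptor for IGF1, was lower in old glands. It had 27.3, 33 and 29.4 CPM in the 2-month libraries, 29.9, 28.8 and 31.2 in the 12-month and 20.4, 22.6 and 22.2 in the 24-month libraries. All 3 libraries at 24 months lay under all 6 younger libraries, which overlapped each other. At 24 against 2 months it fell by 27.3% (fold 0.727, 95% interval 0.622 to 0.85; log2 fold change -0.46, SE 0.09; edgeR adjusted p = 0.00675), and at 24 against 12 months by 27.4% (fold 0.726, 0.621 to 0.849; log2 fold change -0.46, SE 0.09; edgeR adjusted p = 0.0153). Between 12 and 2 months the fold was 1 (95% interval 0.857 to 1.17; edgeR adjusted p = 0.994). The first of these calls held without any single library. The second was lost without 12-month replicate 1 (edgeR adjusted p = 0.0532) or 3 (0.0702).

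Without the 3 salivary libraries the log2 fold change of Igf1r was -0.5 and -0.51 at 24 against 2 and 24 against 12 months, as large as with them, but the calls were lost with 2 libraries per age (edgeR adjusted p = 0.0855 and 0.161). Without the muscle libraries the second was -0.39 (0.348). With library totals alone the change at 24 against 2 months was -0.15 (edgeR adjusted p = 0.425), under a median of 0.31 over all genes on that scale, and at 24 against 12 months -0.46 (0.0886). The genes that tracked Igf1r most closely, of 7362 protein-coding genes compared over 9 libraries, were Rpl36a (Pearson r = 0.992), Rps3a1 (0.978) and Rcc2 (0.977). Rpl36a and Rps3a1 encode ribosomal proteins, and both have near-identical copies in the genome, so their counts are uncertain. Rcc2 encodes a protein of chromosome segregation.

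The promoter of Igf1r is shown beside that of Esr1 for its composition. It is GRCm38.p6, chr7:67952007-67952286, plus strand, from 250 bases before the start to 30 bases from it, as in RefSeq. The RefSeq start lies before 67952827, where the gene begins in the coordinates given above. Its window of 300 bases is 76% G and C, against 46.3% for the first window of Esr1, 59.3% for the second and a median of 52.7% over 32851 windows. Capitals mark the GC box GGGCGG, searched on both strands, which begins at bases 208 and 225, and 35.7% of all windows hold it at least once and 19.5% at least 2 times. RefSeq windows were found for 7 of the 9 receptor genes, all but Nr3c1 and Insr. Among first windows, that of Pgr held 43.7% G and C, Prlr 49.3%, Egfr 62.3%, Nr3c2 65.7% and Ghr 67%.
Igf1r: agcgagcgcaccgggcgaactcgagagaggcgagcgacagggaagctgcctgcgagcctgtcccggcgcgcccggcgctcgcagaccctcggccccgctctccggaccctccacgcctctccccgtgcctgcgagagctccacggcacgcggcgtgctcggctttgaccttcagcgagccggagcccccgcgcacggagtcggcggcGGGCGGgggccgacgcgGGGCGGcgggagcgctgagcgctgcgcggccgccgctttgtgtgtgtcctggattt

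Insr (ENSMUSG00000005534, chromosome 8, 3122061 to 3279617, minus strand), the insulin receptor and the closest relative of Igf1r, was not called in any comparison. It gave 21.6, 19.8 and 21.4 CPM in the 2-month libraries, 24.8, 22.6 and 23.2 in the 12-month and 20.6, 22.9 and 21.1 in the 24-month libraries. The 12-month libraries lay above the 2-month ones, while the 24-month libraries overlapped both. The fold was 1.12 at 12 against 2 months (95% interval 0.97 to 1.3; edgeR adjusted p = 0.275), 1.03 at 24 against 2 (0.887 to 1.19; edgeR adjusted p = 0.797) and 0.915 at 24 against 12 (0.79 to 1.06; edgeR adjusted p = 0.471). With library totals alone the first passed, at a log2 fold change of 0.47 (edgeR adjusted p = 0.0469). Within a library, counts of Igf1r were 1.27, 1.67 and 1.38 times those of Insr in the 2-month libraries, 1.2, 1.28 and 1.35 times in the 12-month and 0.991, 0.989 and 1.05 times in the 24-month libraries. The mean log2 ratio was 0.01 ± 0.05 at 24 months and 0.51 ± 0.2 at 2 months (SD, n = 3 each), with no overlap between 24 months and either younger age. Scaling cancels in this ratio, which was not tested.

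**Figure D4:**
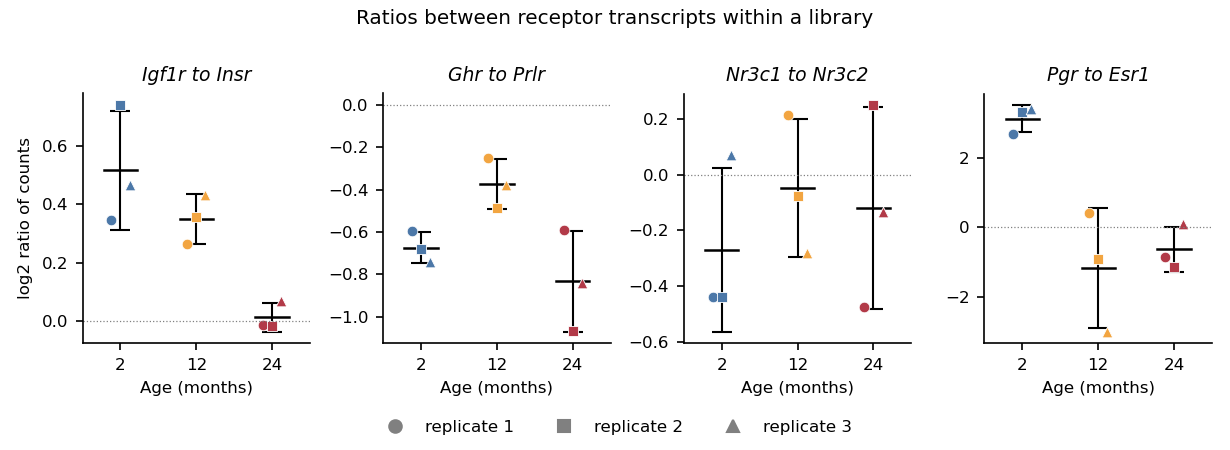
log2 ratio of the counts of 2 receptor genes within each library (y axis, 0 means equal counts, each panel on its own scale) at 2, 12 and 24 months (x axis), with the mean ± SD of 3 as bars and a marker shape for each replicate number. Igf1r to Insr is near 0 at 24 months, Ghr to Prlr is highest at 12 months, and Nr3c1 to Nr3c2 overlaps at all ages. Pgr to Esr1 is highest at 2 months, where Esr1 had 8, 1 and 2 counts.

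While Igf1r was lower at 24 months, its ligand was higher. Igf1 had 1.54, 1.29 and 2.09 CPM in the 2-month libraries, 2.6, 4.09 and 4.25 in the 12-month and 5.13, 6.71 and 6.56 in the 24-month libraries, with no overlap between any ages. It rose at 24 against 2 months by 1.9 on the log2 scale (SE 0.25; edgeR adjusted p = 0.000665), which held in all 19 alternatives, and at 12 against 2 months by 1.15 (SE 0.25; edgeR adjusted p = 0.0154). The second call needed 2-month replicate 2 (edgeR adjusted p = 0.0733 without it) and 12-month replicate 2 (0.07), and was lost without the salivary libraries (0.12, log2 fold change 1.26). At 24 against 12 months the log2 fold change was 0.75 (edgeR adjusted p = 0.093). Igf1 is made by macrophages and fibroblasts in many tissues. The summed markers of macrophages moved the same way, at 38.6 to 66.1 CPM at 2 months, 144 to 194 at 12 months and 183 to 263 at 24 months. Those of fibroblasts were 78.9 to 141, 87.5 to 102 and 133 to 212 CPM, with overlap between 2 months and both later ages. The part of these cells in the rise of Igf1 was not tested. Igf2 had 0 counts in every library, Ins1 0 to 6 and Ins2 0 to 4.

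Of 26 genes in the insulin and IGF list 21 were tested. Of these 6 rose and 1 fell at 24 against 2 months, beside 9.82% of all genes higher and 7.56% lower. At 12 against 2 months 2 rose and 1 fell, beside 5.41 and 2.52%, and at 24 against 12 months 1 rose and 0 fell, beside 2.79 and 1.6%. The medians were 0.19, 0.05 and 0.16, beside 0.0088, 0.0067 and -0.02 over all genes. The list includes the IGF binding proteins, which hold IGF outside the cell. Igfbp4 had 28.6, 25 and 37.9 CPM at 24 months against 14.7, 10 and 15.6 at 2 months, all higher (log2 fold change 1.18, SE 0.19; edgeR adjusted p = 0.00224, called in all 19 alternatives). Igfbp7, a secreted protein common in vessels, had 23.3, 25.8 and 37.1 CPM at 24 months against 17.3, 18.7 and 18.9 at 2 months (log2 fold change 0.65, SE 0.15; edgeR adjusted p = 0.0113) and rose by 0.6 at 24 against 12 months (edgeR adjusted p = 0.0379). The 6 fibroblast markers summed to 141, 133 and 212 CPM in 24-month replicates 1, 2 and 3 against 115, 78.9 and 141 in those of 2 months. For the 5 endothelial markers the sums were 21.2, 21.6 and 25.9 against 17.9, 20.2 and 20.7 CPM. The part of these cells in both genes was not tested.

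Igfbp2 went the other way. It averaged 17 ± 3.05 CPM at 24 months and 25 ± 2.14 at 2 months (SD, n = 3 each; log2 fold change -0.55, edgeR adjusted p = 0.0202) and fell by 0.55 at 12 against 2 months (edgeR adjusted p = 0.033). Foxo1, a transcription factor that insulin signalling keeps out of the nucleus, averaged 17.2 ± 1.49 CPM at 12 months and 12.3 ± 1.21 at 2 months (log2 fold change 0.48, edgeR adjusted p = 0.0172). The call of Igfbp7 at 24 against 12 months was lost without any 1 of the 2-month replicates 1, 2 and 3 (edgeR adjusted p = 0.0511, 0.0511 and 0.0602), 12-month replicates 1, 2 and 3 (0.122, 0.109 and 0.0617) or 24-month replicate 3 (0.0807). That of Igfbp2 at 24 against 2 months was lost without 2-month replicate 2 (0.0651) or 3 (0.079) or 24-month replicate 1 (0.0531), and at 12 against 2 months without 2-month replicate 2 (0.102) or 3 (0.118) or 12-month replicate 1 (0.105) or 2 (0.158). That of Foxo1 at 12 against 2 months needed 2-month replicate 3 (0.074 without it) and 12-month replicate 2 (0.099). Without the salivary libraries, with 2 libraries per age, the log2 fold changes were 0.68 for Igfbp7 at 24 against 12 months and 0.76 at 24 against 2, -0.51 for Igfbp2 at 24 against 2 and -0.42 at 12 against 2, and 0.37 for Foxo1 at 12 against 2. None of them was called there (edgeR adjusted p = 0.209, 0.0765, 0.176, 0.434 and 0.376). Without the muscle libraries Igfbp7 had 0.62 at 24 against 12 months (0.359) and Igfbp2 -0.72 at 12 against 2 (0.0786), neither of them called. With library totals the calls of Igfbp2 ended (edgeR adjusted p = 0.397 at 24 against 2 months and 0.375 at 12 against 2), as did that of Igfbp7 at 24 against 12 months (0.162, log2 fold change 0.62). Igf2r, which takes IGF2 to the lysosome, was not called, with a fold of 0.983 at 24 against 2 months (95% interval 0.85 to 1.14).

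Egfr (ENSMUSG00000020122, chromosome 11, 16752203 to 16918158, plus strand), the receptor for EGF, had 11.4, 10.7 and 10.4 CPM in the 2-month libraries, 9.53, 9.97 and 12.2 in the 12-month and 14, 13.2 and 14 in the 24-month libraries. All 3 old libraries were above all 6 younger ones, the closest being 12-month replicate 3. The test was missed in each comparison. The fold was 1.27 at 24 against 2 months (95% interval 1.04 to 1.54; log2 fold change 0.34, SE 0.11; edgeR adjusted p = 0.0593) and 1.3 at 24 against 12 months (1.07 to 1.58; log2 fold change 0.38, SE 0.11; edgeR adjusted p = 0.0826), and the 3 ages together gave edgeR adjusted p = 0.0533. Without 12-month replicate 3 both were called (edgeR adjusted p = 0.0375 and 0.0352). It was also called at 24 against 2 months with library totals alone (log2 fold change 0.64, edgeR adjusted p = 0.0176) and with a minimum count of 50 (0.0459), and at 24 against 12 months by DESeq2 (0.0435). Summed fibroblast markers were 133 to 212 CPM at 24 months, 87.5 to 102 at 12 months and 78.9 to 141 at 2 months. These sums overlapped between 24 and 2 months but not between 24 and 12 months. The part of fibroblasts was not tested.

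The ligands and sister receptors of Egfr were not called. Egf had 33.1, 41.2 and 35.2 CPM in the 2-month libraries, 34.4, 33 and 31.4 in the 12-month and 42.1, 34.4 and 31.9 in the 24-month libraries, which overlap, and the fold at 24 against 2 months was 0.99 (95% interval 0.813 to 1.2). Erbb3 averaged 42.1 ± 4.59 CPM and Erbb2 20.6 ± 3.7 at 24 months, against 41.5 ± 0.333 and 21.9 ± 0.659 at 2 months (SD, n = 3 each; edgeR adjusted p = 0.916 and 0.677). Erbb4 was low, at 1.3 ± 0.879 CPM at 24 months and 1.86 ± 0.353 at 2 months (edgeR adjusted p = 0.493). Of 27 genes in the EGF list 23 were tested, and edgeR called 0 at 12 against 2 months and 0 at 24 against 12, beside 7.93 and 4.39% of all genes. It called 1 of the 23 at 24 against 2 months, where 17.4% of all genes were called: Dusp6, a phosphatase induced by ERK signalling, higher by 0.4 on the log2 scale (adjusted p = 0.0451). Dusp6 lost its call without 7 of the 9 libraries in turn, with edgeR adjusted p = 0.131 and 0.113 without 2-month replicates 1 and 2, 0.0532 and 0.0616 without 12-month replicates 1 and 2, and 0.0627, 0.0546 and 0.17 without 24-month replicates 1, 2 and 3, and it was lost without the salivary (0.0917, log2 fold change 0.57) or muscle libraries (0.0707, 0.40).

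Libraries of the ages compared did not overlap for a minority of the receptors. For 24 against 2 months this held for 3 of 9 (Esr1 and Egfr higher, Igf1r lower), beside 35.1% of all tested genes. At 24 against 12 months 4 of 9 (Esr1, Prlr and Egfr higher, Igf1r lower) did not, beside 24.7%, and at 12 against 2 months 4 of 9 (Esr1 and Insr higher, Pgr and Prlr lower), beside 27.5%.

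**Figure D5:**
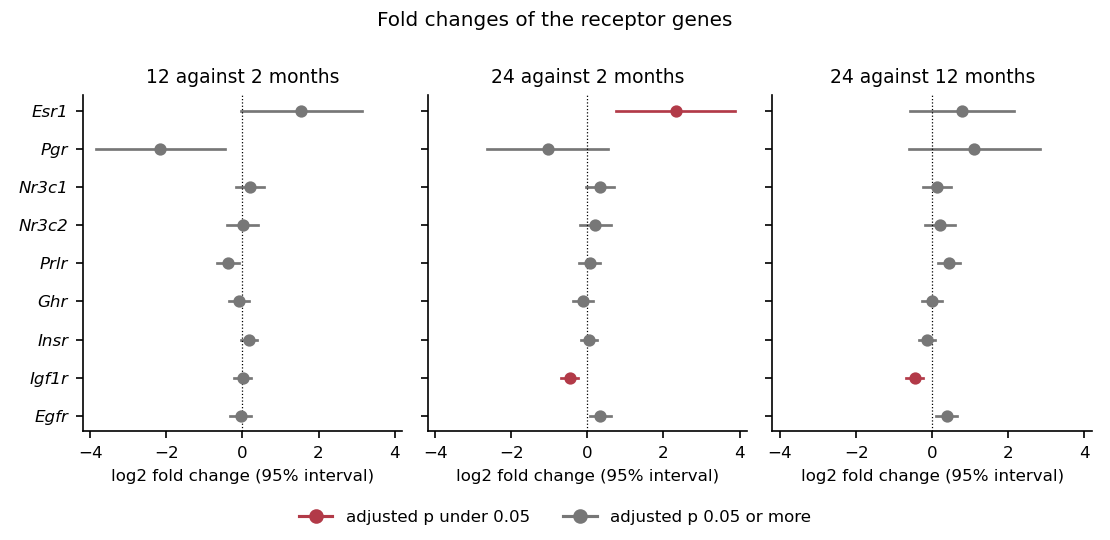
log2 fold change of each receptor gene from the edgeR fit (point) with a 95% interval computed from its SE (line), in 3 panels for 12 against 2, 24 against 2 and 24 against 12 months, with the older age over the younger. Red marks an adjusted p under 0.05, which are Esr1 at 2.33 and Igf1r at -0.46 at 24 against 2 months and Igf1r at -0.46 at 24 against 12 months. The intervals of Esr1 and Pgr are the widest.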

How the data were processed

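RNA of 9 lacrimal gland libraries was read on a BGISEQ500RS with paired 100 bp reads, per the labels. The genome was GRCm38, and the tools named are STAR, HTSeq, DESeq2, FastQC and cutadapt, with no versions, per the submitters' processing notes. No source used here gives the annotation release or the strand setting. The deposited counts are whole reads per gene and were used for every test. The deposited log2 values equal log2(count / DESeq2 factor + 1), with 100% within 1e-06 of that, and were not tested. Symbols, coordinates and exon lengths came from GENCODE M21, which named 54079 of 54232 genes.

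Counts were fitted in R 4.3.3 with edgeR 4.0.16, using TMM factors, filterByExpr with a minimum count of 10, 1 model of the 3 ages and the quasi-likelihood F test. Benjamini-Hochberg adjustment covered all 14944 genes. The filter kept at least 99.93% of counts. The common biological coefficient of variation came to 21.2% and the residual degrees of freedom to 6, and the procedure was tested on simulated data. At this depth genes of a few counts per library have wide intervals.

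The receptor genes, 6 pathway lists and 12 marker lists were chosen with earlier results of these data known. From each pathway list the text names up to 4 called genes with the smallest p in a comparison, plus ligands and sister receptors, and others as stated. Profiles were compared on log2(CPM + 0.5) among genes averaging 5 CPM or more, and the 3 most alike were to be named, of which 1 is not reported here. Alternatives were RLE scaling, library totals, no filter, a minimum of 50, DESeq2 1.42.0, limma 3.58.1 voom with sample weights, a block for replicate number, the 6 libraries of a comparison alone, an adjusted p under 0.01, each library left out, and the 3 salivary or 2 muscle libraries left out. Python 3.11.15, numpy 2.4.6, pandas 2.3.3 and matplotlib 3.10.9 made the summaries and figures.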

Additional observations from a re-analysis of the deposited data

How the results depend on the processing

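The calls of the receptor genes rest on 3 libraries per age, and most lie near the threshold. Each alternative below is set against 0 receptor genes called at 12 against 2 months, 2 at 24 against 2, 1 at 24 against 12 and 2 for the 3 ages together. At 12 against 2 months library totals gave 1 (Insr), no count filter 2 and DESeq2 2 (Prlr and Pgr), and the 6 libraries alone 1 (Prlr). At 24 against 2 months an adjusted p under 0.01 and leaving out the muscle libraries gave 1 each (Igf1r), leaving out the salivary libraries 0, and library totals 3 without Igf1r (Esr1, Egfr and Nr3c1). At 24 against 12 months RLE scaling, no filter, a minimum of 50 and limma voom gave 2 each (Prlr and Igf1r) and DESeq2 3 (with Egfr), while an adjusted p under 0.01, library totals, and leaving out salivary or muscle libraries gave 0 each. For the 3 ages DESeq2 and limma voom gave 4 each (Prlr, Igf1r, Esr1 and Egfr), an adjusted p under 0.01 and leaving out the muscle libraries 1 each (Igf1r), and leaving out the salivary libraries 0. Leaving out 1 library in turn gave 0 to 1, 1 to 3, 0 to 2 and 1 to 3.

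Over all genes 1185, 2597, 656 and 2534 were called in these 4 tests. An adjusted p under 0.01 gave 383, 891, 211 and 842, and leaving out the salivary libraries 127, 626, 170 and 471. No filter gave 2026 and 1486, DESeq2 1821 and 1223, and leaving out the muscle libraries 746 and 132 at 12 against 2 and 24 against 12 months, and library totals 340 at 24 against 12. Leaving out 1 library gave 435 to 1285, 1160 to 2623, 312 to 700 and 1396 to 2532.

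The replicate numbers do not pair the libraries, since the deviations of same-numbered libraries correlated at -0.15 to 0.061. With the replicate number as a block, receptor genes called were 1 (Igf1r) at 24 against 2 months and 1 (Igf1r) for the 3 ages, and all genes called were 701 at 12 against 2 months, 409 at 24 against 12 and 1640 for the 3 ages.

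Of 68 log2 fold changes of receptor and pathway genes, with 1283 values under alternatives, 1022 kept direction and side of the threshold, 214 no longer passed, 21 newly passed and 26 changed sign, all 26 in receptor comparisons with no call and fold changes near 0. Library totals gave 0.26 for Egfr and 0.22 for Ghr at 12 against 2 months and 0.18 for Ghr at 24 against 2. RLE scaling and DESeq2 gave -0.0073 and -0.0071 for Igf1r and -0.0055 and -0.0054 for Nr3c2 at 12 against 2 months, where limma voom gave -0.012 for Nr3c2. Leaving out the salivary libraries gave -0.090 for Nr3c2 at 12 against 2 months and -0.026 for Prlr at 24 against 2, and the muscle libraries -0.062 for Igf1r at 12 against 2 and 0.039 for Ghr at 24 against 12. Leaving out 1 library gave -0.17 to 0.024 for Egfr, -0.060 to 0.077 for Igf1r and -0.077 to 0.13 for Nr3c2 at 12 against 2 months, -0.12 to 0.084 for Ghr at 24 against 12, and -0.0050 to 0.071 for Insr and -0.067 to 0.15 for Prlr at 24 against 2. The cause of these changes was not tested. By the longest transcript Ghr took place 1 by level per length, Prlr 2, Igf1r 3, Insr 4, Nr3c2 5 and Nr3c1 6.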

Other observations

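Other hormone and growth factor receptors outside the 9 also differed between ages. Of 38 listed 30 were tested, and at 24 against 2 months 6 rose and 1 fell, beside 9.82% of all genes higher and 7.56% lower. Pparg, the nuclear receptor that drives fat cell differentiation, averaged 1.4 ± 0.337 CPM at 24 months and 0.104 ± 0.0867 at 2 months (SD, n = 3 each; log2 fold change 3.67, SE 0.55; edgeR adjusted p = 0.00166), and the 8 adipocyte markers, all called higher, summed to 10.8 to 31.4 and 1.5 to 2.09 CPM. Pparg had 8, 1 and 3 counts at 2 months and so passed the filter on counts through the older libraries, where it is higher. The same holds for the adipocyte markers Adipoq, Cidec, Lep, Plin1 and Retn, with at most 1 count in a 2-month library. Their calls therefore add no support. Pdgfra, a receptor of fibroblasts and itself in the fibroblast marker list, averaged 7.58 ± 2.08 CPM at 24 months and 3.14 ± 1.12 at 2 months (log2 fold change 1.27, edgeR adjusted p = 0.00787). Kit, the stem cell factor receptor, had 24.7, 30.4 and 32.4 CPM at 24 months against 21.2, 19.3 and 16.7 at 2 months, with no overlap (log2 fold change 0.61, edgeR adjusted p = 0.00867). Nr1h3, the oxysterol receptor LXR alpha, averaged 2.1 ± 0.43 CPM at 24 months and 0.656 ± 0.207 at 2 months (log2 fold change 1.68, edgeR adjusted p = 0.0109). These 4 calls held without any single library. Without the salivary libraries those of Kit and Nr1h3 were lost (edgeR adjusted p = 0.121 and 0.0959), at log2 fold changes of 0.51 and 1.41. The part of fat, stromal and immune cells in them was not tested.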
